A study of Mus musculus with 13 samples.

Results

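Polyamine synthesis and breakdown genes were followed in the gastrocnemius, a calf muscle, of mice that overexpress UCP1 in skeletal muscle. The 10 genes sought were Odc1, Amd1, Amd2, Srm, Sms, Sat1, Smox, Paox, Oaz1 and Oaz2. They were found by the gene name printed in the array files, and every probe under a name was taken. That gave 8 of the 34797 gene names of the array, with 19 probes, and all 19 passed the filter on dim probes. No probe carried the name Amd1 or Oaz2. A further 2 probes named Oaz2-ps list an mRNA accession that belongs to Oaz2 in the RefSeq gene table of GRCm38.p6, and they are described under the file's name beside the 8 genes. The genes were selected on their measured differences between the genotypes, since Amd2, Smox and Odc1 were known to be lower and Srm higher in the transgenic muscle. The differences given below are therefore a description and carry no test.

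The study set 7 UCP1 transgenic mice against 6 wild-type littermates, all male C57BL/6J, given as 12 weeks old and kept on a purified low fat diet for 12 weeks. The labels name skeletal muscle as the site of the transgene and do not state its promoter or the origin of the line. Each mouse had 1 array, on which its RNA was labelled with Cy5 and a common pool of muscle RNA with Cy3. All levels below are log2 ratios of the mouse over that pool, and all differences are the transgenic mean minus the wild-type mean of these ratios.

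Putrescine, spermidine and spermine are small, positively charged molecules that bind RNA and DNA and are needed for growth and translation. Ornithine decarboxylase, the product of Odc1, makes putrescine from ornithine. S-adenosylmethionine decarboxylase, made from the Amd genes, supplies the aminopropyl groups that spermidine synthase (Srm) and spermine synthase (Sms) add in turn. Spermine oxidase (Smox) takes spermine back to spermidine, while Sat1 acetylates polyamines for export or for oxidation by Paox. Antizymes (Oaz1, Oaz2) are made by a ribosomal frameshift when polyamines are plentiful, and they send ornithine decarboxylase to the proteasome.

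The array reads each gene through probes of 60 bases, and what a probe can tell apart depends on its letters. The probes below are shown for the 4 genes named in the choice of the set, Amd2, Smox, Odc1 and Srm, and coordinates are those of the array files in mm9 (NCBI37).
Amd2, probe A_55_P2014511, chr10:40009136-40009195, minus strand: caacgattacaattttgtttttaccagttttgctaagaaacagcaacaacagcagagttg
Smox, probe A_66_P107703, chr2:131347853-131347912, plus strand: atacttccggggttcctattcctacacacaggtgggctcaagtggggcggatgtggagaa
Odc1, probe A_52_P436238, chr12:17554799-17554858, plus strand: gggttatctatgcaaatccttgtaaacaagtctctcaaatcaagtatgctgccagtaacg
Srm, probe A_55_P2002376, chr4:147968254-147968313, plus strand: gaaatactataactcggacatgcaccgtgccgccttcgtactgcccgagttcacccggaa
Whether these positions are exonic, intronic or in a UTR was not analysed here.

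The name Amd2 needs a limit. The 3 probes named Amd2 lie at 40007295 to 40009195 of chromosome 10, on the minus strand, between probes of Gtf3c6 (from 39969334) and Cdk19 (from 40201715). In the gene order of GRCm38.p6 the gene between Gtf3c6 and Cdk19 is Amd1, while Amd2 lies between Frk and Hs3st5, whose own probes are at 34329057 and 36553975 of chromosome 10. Of the 3 probes, A_55_P2014506 and A_55_P2014511 also list the Amd1 mRNA, and A_55_P2121252 lists only that of Amd2. Amd1 and Amd2 therefore cannot be told apart here, and the name Amd2 is kept as the files print it.

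An array had 20643 to 24036 of its 55681 probes well above background in Cy5. Muscle fibre markers were present throughout, since Acta1, Ckm, Myh4 and Myh1 were well above background on all 13 arrays. The transgene was checked through Ucp1. Its ratio was -4.23 at the lowest, -3.59 at the median and 0.45 at the highest in wild type, against -0.20, 0.34 and 0.85 in the transgenic mice. The array labelled wild type 4 was the one at 0.45, which goes against its label. On that array Amd2 read 1.08, Smox 0.57, Odc1 0.52, Sms 0.58 and Srm -0.63, each outside the transgenic range. Of its marker means, described below, that of muscle fibres (0.24) lay outside the transgenic range and that of fat cells (-0.02) within it. Why its Ucp1 differs was not tested. Differences of the polyamine genes through their brightest probes are therefore also given without that array.

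Of the 8 polyamine genes, each read through its brightest probe, Amd2, Smox, Odc1 and Sms were lower in every transgenic mouse than in every wild-type mouse. Srm was higher in every transgenic mouse than in every wild-type mouse, and Paox, Sat1 and Oaz1 overlapped between the groups. Over all 17257 genes measured, 14.7% had groups that did not overlap, 7.47% with the transgenic mice higher and 7.26% with them lower. Nothing is read from the polyamine count beside this background, because the choice of genes used the same comparison. Ranked by the size of the difference among lower genes, Amd2 was 1st, Smox 7th and Odc1 28th, and Srm was 381st among higher genes. The median difference of the 8 genes was -0.74, beside -0.0010 for all genes.

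**Figure D1:**
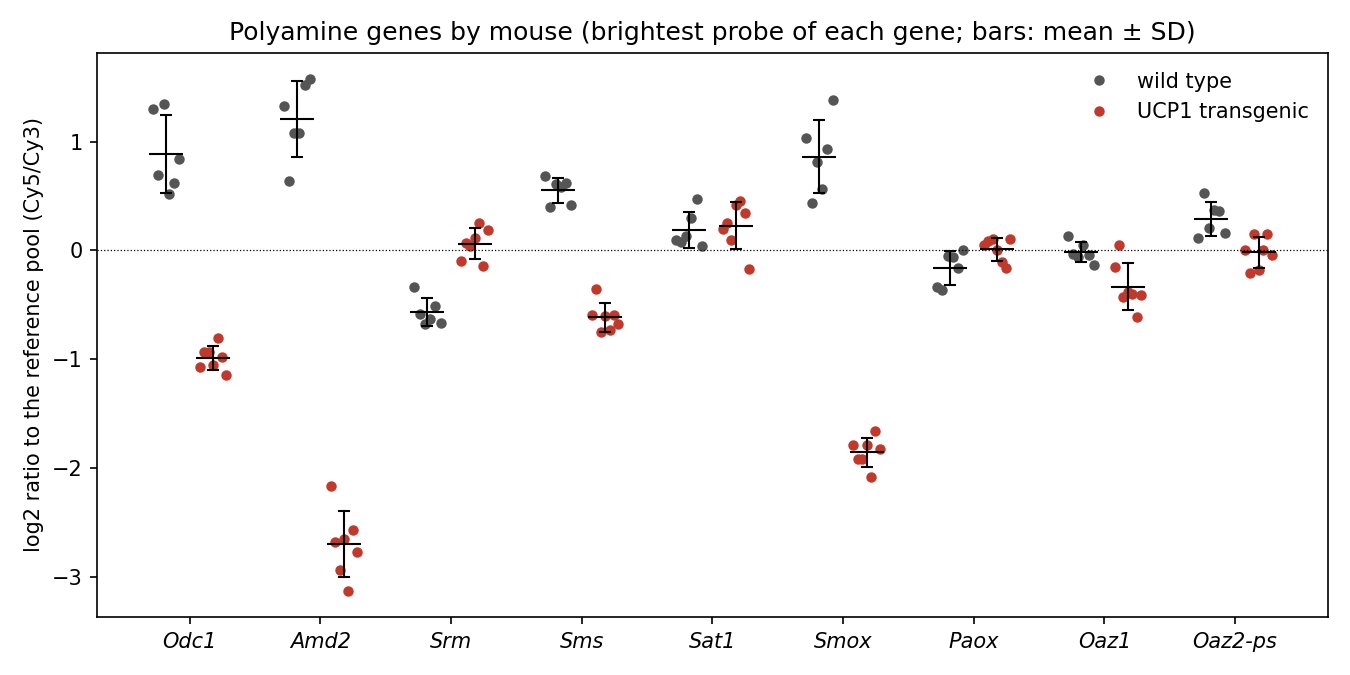
Log2 ratio to the reference pool (vertical axis) of each polyamine gene (horizontal axis), read through its brightest probe, with 1 point per mouse (6 wild type in grey, 7 UCP1 transgenic in red) and bars for the mean ± SD. Amd2, Smox, Odc1 and Sms lie lower in all transgenic mice, Srm lies higher, and the groups of Sat1, Paox, Oaz1 and Oaz2-ps overlap.

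Odc1 makes the first committed step, from ornithine to putrescine. Through its brightest probe, at 17557831 to 17557890 of chromosome 12, its ratio in wild type was 0.52 at the lowest, 0.77 at the median and 1.34 at the highest. In the transgenic mice it was -1.14, -0.98 and -0.81. The groups stood apart, and wild type 1 and 3 were the highest mice, at 1.30 and 1.34. The wild-type mean was 0.89 ± 0.36 (SD, n = 6) and the transgenic mean -0.99 ± 0.11 (SD, n = 7), a difference of -1.88 ± 0.12 (SE), or 3.67-fold lower. Within the 4 slides the difference was -2.30, -1.96, -1.45 and -1.79, and without wild type 4 it was -1.95. Slides were told apart by their barcodes. Wild type 1 was the only wild-type array on slide 1, and UCP1 transgenic 3 the only transgenic array on slide 2. On slide 3 the only wild-type array was wild type 4, whose Ucp1 goes against its label. Values within slides, here and below, carry this limit.

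All 4 Odc1 probes had groups apart, but the size differed among them. The others read -1.79 ± 0.14 (SE, A_55_P2035102), -1.41 ± 0.12 (SE, A_52_P436238, shown above) and -1.22 ± 0.11 (SE, A_55_P1982818). In Agilent's own log ratio, which has no offset of 50 added to the signals, the 4 lay closer together, from -1.76 to -1.94. Of the Odc1 probes, A_55_P1995173 and A_55_P2035102 share a run of 46 bases, and A_55_P1982818 shares 22 with each, so these 3 are not separate readings, while A_52_P436238 shares no run of 20 or more with them. An unnamed probe, A_55_P2130448, shares 34 bases with those 2 and read -1.12 to -0.62 in transgenic against 0.56 to 1.35 in wild-type mice, a difference of -1.81 ± 0.13 (SE).

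Amd2 stands for the decarboxylase that turns S-adenosylmethionine into the donor of aminopropyl groups. Its brightest probe, A_55_P2014506, lies at 40007295 to 40007354 of chromosome 10 and read 0.63 at the lowest, 1.21 at the median and 1.58 at the highest in wild type. In the transgenic mice it read -3.13, -2.68 and -2.17. The gap between the groups was wider than the range within either, with wild type 2 the lowest of its group and UCP1 transgenic 1 the highest of its own. The mean was 1.20 ± 0.35 (SD, n = 6) against -2.70 ± 0.30 (SD, n = 7), a difference of -3.91 ± 0.15 (SE), or 15.0-fold lower. In spot signals before normalization the median was 49436 units in wild type and 4298 in transgenic mice. The difference was -3.75, -3.79, -3.98 and -4.22 within the 4 slides and -3.93 without wild type 4.

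The other Amd2 probes gave the same direction with smaller sizes. A_55_P2014511, shown above, ranged from 0.28 to 1.26 in wild-type mice and from -2.91 to -2.05 in transgenic ones, a difference of -3.55 ± 0.14 (SE). A_55_P2121252, the one that lists no Amd1 mRNA, ranged from 0.81 to 1.43 and from -1.80 to -1.13, a difference of -2.54 ± 0.12 (SE). The gap of -1.37 between the brightest probe and this one was also present in Agilent's own log ratio, where they read -3.85 and -2.56. Which transcripts each probe binds was not tested.

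Srm, which makes spermidine, was the 1 gene of the 8 that was higher in transgenic muscle with groups apart. Through A_51_P300709, at 147968433 to 147968492 of chromosome 4, it read -0.67 at the lowest, -0.61 at the median and -0.33 at the highest in wild type. In the transgenic mice it read -0.14, 0.07 and 0.25, so the nearest mice of the groups were wild type 1 and UCP1 transgenic 6. The mean was -0.57 ± 0.13 (SD, n = 6) against 0.06 ± 0.14 (SD, n = 7), a difference of 0.63 ± 0.08 (SE), or 1.55-fold higher. It was 0.32, 0.67, 0.82 and 0.61 within the 4 slides and 0.61 without wild type 4.

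The other Srm probe, whose letters are given above, did not separate the groups. Wild-type mice read -0.58 to -0.31 there and transgenic mice -0.60 to 0.23, with a difference of 0.44 ± 0.11 (SE). UCP1 transgenic 2 was the lowest of all 13 mice there, while A_51_P300709 put that mouse at 0.07, above every wild-type mouse. In the reference channel A_55_P2002376 also varied most of the 19 probes, with an SD of 0.198 over the 13 arrays.

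Sms, which adds the aminopropyl group that makes spermine, was lower by less than Odc1. Its brightest probe, at 153881886 to 153881945 of the X chromosome, read 0.40 at the lowest, 0.60 at the median and 0.68 at the highest in wild type. In the transgenic mice it read -0.75, -0.60 and -0.36. The groups stood apart, with UCP1 transgenic 2 above the rest of its group. The mean was 0.55 ± 0.12 (SD, n = 6) against -0.61 ± 0.13 (SD, n = 7), a difference of -1.17 ± 0.07 (SE), or 2.25-fold lower. The slides gave -1.16, -1.25, -1.25 and -1.16, and without wild type 4 the difference was -1.16. The other probes, -0.95 ± 0.10 and -1.20 ± 0.07 (SE), had groups apart too. The pair of aminopropyl transferases thus lay in opposite directions, Srm higher and Sms lower.

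Among the genes of breakdown, Smox stood alone in the size of its difference. Its brightest probe, at 131350842 to 131350901 of chromosome 2, read 0.44 at the lowest, 0.87 at the median and 1.38 at the highest in wild type. In the transgenic mice it read -2.08, -1.82 and -1.66. The groups stood far apart, and the wild-type mice were spread more widely than the transgenic ones. The mean was 0.86 ± 0.34 (SD, n = 6) against -1.85 ± 0.13 (SD, n = 7), a difference of -2.72 ± 0.12 (SE), or 6.57-fold lower. Within slides the difference was -2.89, -2.55, -2.50 and -2.90, and without wild type 4 it was -2.77. The second probe, A_66_P107703 shown above, ranged from 0.12 to 0.97 in wild-type mice and from -2.04 to -1.53 in transgenic ones, a difference of -2.33 ± 0.13 (SE).

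The acetyltransferase Sat1 and the oxidase Paox, which act one after the other, did not separate the groups. Sat1, read at 151647856 to 151647915 of the X chromosome, was 0.04 at the lowest, 0.11 at the median and 0.47 at the highest in wild type, and -0.17, 0.26 and 0.45 in transgenic mice. Its difference was 0.04 ± 0.10 (SE), and -0.03 in Agilent's own log ratio. Paox, read at 147320174 to 147320233 of chromosome 7, was -0.36, -0.11 and 0.00 in wild type and -0.16, 0.05 and 0.11 in transgenic mice. Its difference was 0.17 ± 0.08 (SE), and 0.05 ± 0.06 (SE) through a second probe that shares 54 bases with the first. Without wild type 4 these differences were 0.06 for Sat1 and 0.19 for Paox through its brightest probe.

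The antizyme gene Oaz1 was read through a pair of probes that share 54 bases and lie at the same place, from 80291975 of chromosome 10. They are shown by their last 30 bases, with capitals where the pair differs.
Oaz1, probe A_55_P2035454, last bases: caaatccaataaagtgatctcgttCATTGG
Oaz1, probe A_55_P2171047, last bases: caaatccaataaagtgatctcgttAAAAAA
Through the first, Oaz1 read -0.13, -0.04 and 0.14 (lowest, median, highest) in wild type and -0.61, -0.40 and 0.05 in transgenic mice. Through the second it read -0.11, 0.02 and 0.13 against -0.40, -0.34 and -0.20. The groups overlapped in the first, where UCP1 transgenic 2 stood at 0.05, and did not overlap in the second. The differences were of like size, -0.32 ± 0.09 and -0.34 ± 0.06 (SE), but the first became 0.03 with median centring of the arrays in place of loess, a scaling that put the median of all genes at 0.14. Without wild type 4 they were -0.31 and -0.33.

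Oaz2-ps, whose accession is that of the antizyme gene Oaz2, overlapped in both of its probes. The brighter one, at 65538045 to 65538104 of chromosome 9, ranged between 0.12 and 0.53 in wild-type mice and between -0.21 and 0.15 in transgenic ones. Its difference of -0.31 ± 0.08 (SE) became 0.02 under median centring. The dimmer one read -0.04 ± 0.10 (SE). Without wild type 4 they were -0.29 and 0.0059, so the dimmer one turned sign. Fitted with slide as a fixed block, the differences were -3.97 for Amd2, -2.73 for Smox, -1.87 for Odc1, -1.20 for Sms, 0.60 for Srm, 0.18 for Paox, 0.0014 for Sat1, -0.37 for Oaz1 and -0.27 for Oaz2-ps. Over the 19 probes of the 8 genes, 13 were lower with groups apart, 1 was higher with groups apart and 5 overlapped. Over all 17257 genes, each through its brightest probe, 14.7% had groups apart, and the share over all probes was not worked out. Nothing is read from the probe count, because the choice of genes used the same comparison and some probes share bases.

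**Figure D2:**
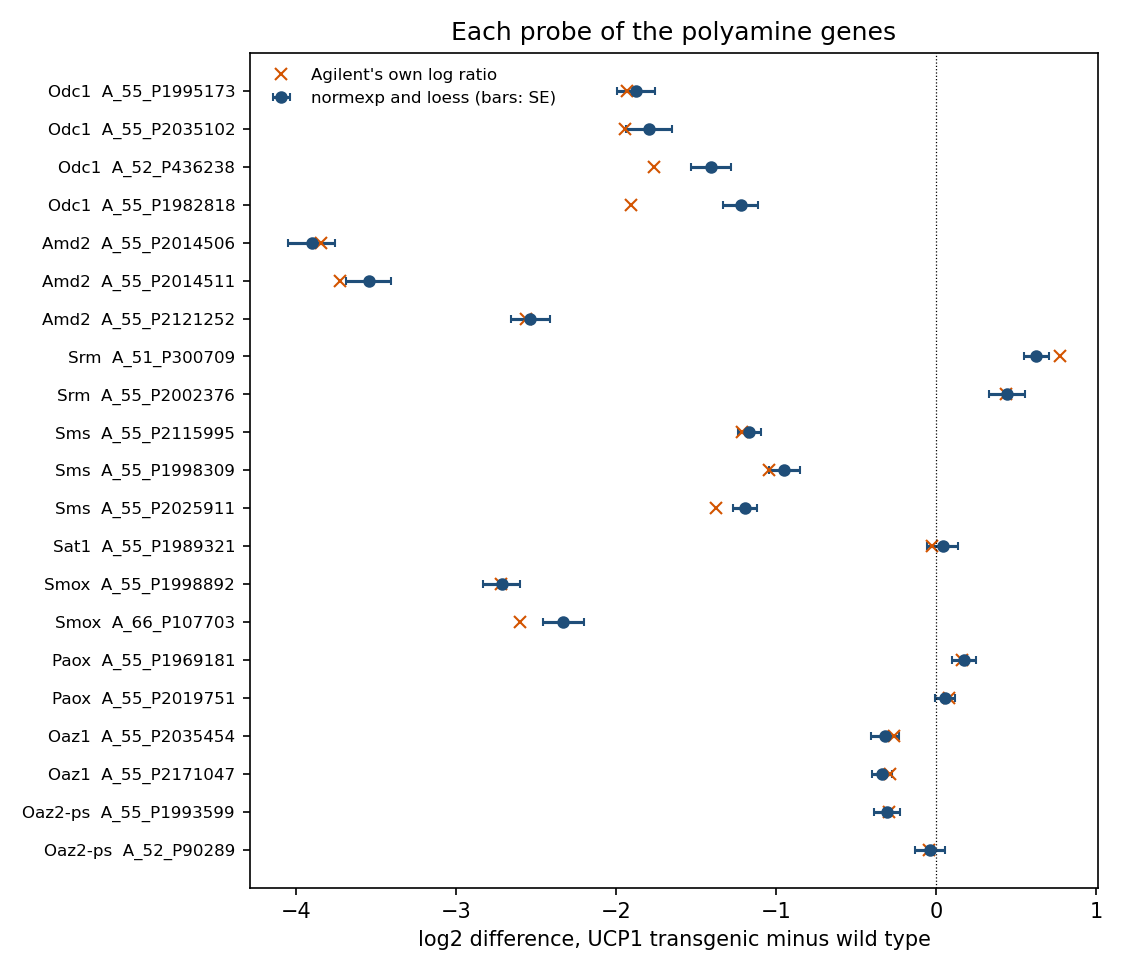
Difference between UCP1 transgenic and wild-type mice on the log2 scale (horizontal axis) for each probe (vertical axis), as points with the SE after normexp and loess and as crosses in Agilent's own log ratio. The 3 Amd2 probes run from -3.91 to -2.54, and the Odc1 probes spread from -1.88 to -1.22 in points but lie at -1.76 to -1.94 in crosses.

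The reference channel gives a guide to the repeatability of each probe, because the same pool was on every array. Both channels were normalized together, so the Cy3 spread can also carry some of the Cy5 signal. The SD of the normalized Cy3 signal over 13 arrays was 0.0392 to 0.198 on the log2 scale across the 19 polyamine probes. The SD of the mouse channel within groups was larger in 19 of 19 probes, by 1.25 to 4.35 times. Outside these 19, the brighter Oaz2-ps probe had an SD of 0.142 among mice and 0.040 in the pool. The dimmer one went the other way, with 0.112 among mice and 0.155 in the pool. For the brightest Amd2 probe the SD was 0.12 in the pool and 0.34 among mice of a group.

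Markers of fat cells and of muscle fibres differed between the genotypes, where 16.9% of all 17257 genes were higher and 16.1% lower. Of 9 white adipocyte markers measured, 8 were higher and none lower in transgenic muscle (limma, Benjamini-Hochberg adjusted p below 0.05), with a median difference of 0.75. Their mean level ran from -0.62 to -0.02 in wild-type mice and from -0.13 to 0.34 in transgenic ones, and Lep, which encodes leptin, was well above background on 0 arrays. Of 10 fibre markers, 1 was higher and 7 were lower, with a median difference of -0.62 and a mean level of 0.22 to 0.57 in wild type against -0.31 to -0.01.

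With the mean of the adipocyte markers as a covariate, the difference was -4.00 ± 0.30 for Amd2 and -2.46 ± 0.23 for Smox (SE). It was -1.51 ± 0.22 for Odc1, -1.22 ± 0.15 for Sms and 0.64 ± 0.16 for Srm (SE). Marker level and genotype went together, and without the covariate these SEs were 0.15, 0.12, 0.12, 0.07 and 0.08. A call can therefore be lost under the covariate without a smaller difference. Of the related genes below, this held for the lost calls of Ahcy (0.45 without, 0.53 with the covariate) and Mri1 (0.37, 0.42). The other lost calls came with smaller differences, for Oat (-0.26, -0.03), Slc47a1 (-0.34, 0.03), Aoc3 (0.26, 0.18) and Gpc1 (-0.27, -0.22). Whether fat content accounts for a lost call was not tested. The part of the fibre markers in the differences of these genes was not tested. Fewer cells of a type and less RNA per cell cannot be told apart in whole muscle. Of the lists for other cells, macrophage markers (7 measured), endothelial markers (7) and satellite cell markers (3) each had 1 lower and none higher. Fibroblast markers had 1 of 5 higher, Schwann cell markers 2 of 5 higher, and of 3 liver markers 0 passed the filter. Beside 16.9% of all genes higher and 16.1% lower, nothing is read from these small counts.

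Differences among mice of the same genotype did not enter the choice of genes, so the levels of Amd2 and the other genes were set against each other within the 6 wild-type and within the 7 transgenic mice. None of the 16 correlations passed after Benjamini-Hochberg adjustment, and the lowest adjusted p was 0.393 (exact two-sided permutation tests). Unadjusted, 2 of the 16 had a p below 0.05. Amd2 and Smox correlated at r = 0.88 in wild type (exact permutation p = 0.025, adjusted p = 0.393), with Spearman's rho of 0.89 (exact p = 0.0333, adjusted p = 0.267). In the transgenic mice r was 0.71 (exact permutation p = 0.0736, adjusted p = 0.393) and rho 0.86 (exact p = 0.0238, adjusted p = 0.267). Without the 2 mice farthest from the median of Amd2, r was 0.71 in wild type and 0.74 in transgenic mice.

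The other correlation below an unadjusted 0.05 was that of Amd2 with Srm in the transgenic mice, at r = -0.75 (exact permutation p = 0.0498, adjusted p = 0.393) with rho of -0.71 (exact p = 0.0881, adjusted p = 0.352). It was -0.42 without the 2 farthest mice, so it rested on them. Of the 16 correlations, 10 were positive and 6 negative. The smallest p that 6 mice allow is 0.00278, and 7 mice allow 0.000397. A slide held too few mice of a group for values within slides. In Agilent's own log ratio 3 of the 16 passed, each with an adjusted p of 0.037 in exact permutation tests. They were Amd2 with Sat1 in wild type (r = 0.97) and with Srm (r = -0.93) and Smox (r = 0.89) in transgenic mice. By Spearman's rho only Smox passed (exact permutation, adjusted p = 0.0444, against 0.133 for Sat1 and 0.182 for Srm). Without the 2 farthest mice r was 0.85 for Sat1, -0.58 for Srm and 0.94 for Smox. After normexp and loess, Sat1 in wild type was at r = 0.28, and in Cy5 alone at -0.04. In the Cy5 channel alone Amd2 with Smox passed in transgenic mice (r = 0.97, exact permutation, adjusted p = 0.0222). Its rho of 0.89 did not pass there (exact permutation, adjusted p = 0.133).

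**Figure D3:**
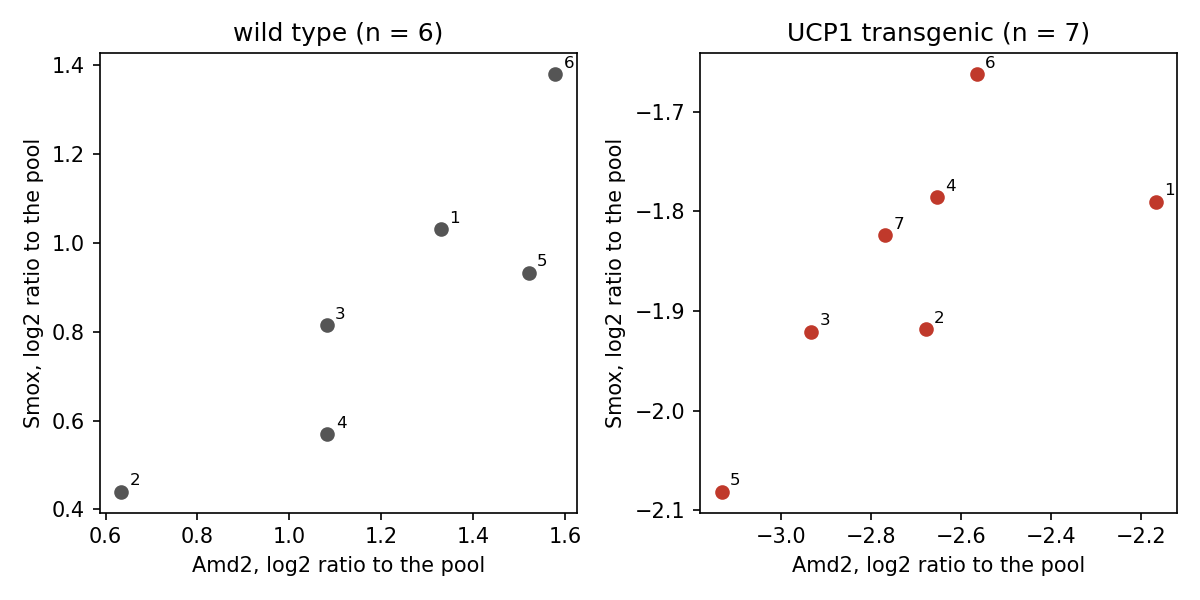
Log2 ratio to the reference pool of Smox (vertical axis) against Amd2 (horizontal axis) in each mouse, wild type on the left and UCP1 transgenic on the right, with replicate numbers at the points and separate axes in each panel. The wild-type points run from wild type 2 (Amd2 at 0.63) to wild type 6 (1.58) and the transgenic points from UCP1 transgenic 5 (-3.13) to UCP1 transgenic 1 (-2.17), and neither correlation passed after adjustment.

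Over all 13 arrays, after each group's mean was taken away, the pattern most like that of Amd2 among 17133 genes belonged to a probe that the files name NAP069232-1 and describe as unknown. Its r with Amd2 was 0.96, a description over arrays that share the reference pool and the normalization. It read 0.44 at the lowest, 0.96 at the median and 1.21 at the highest in wild type and -2.78, -2.41 and -2.13 in transgenic mice. The groups stood apart there as in Amd2, with a difference of -3.37 ± 0.12 (SE). The probe is shown because no gene is named for it in the files. Which transcript it binds was not tested, so it may be a further reading of Amd transcripts and not a separate gene.
NAP069232-1, probe A_55_P2067200, chr9:24631033-24631092, minus strand: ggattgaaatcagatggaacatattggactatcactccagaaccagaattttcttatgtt
Next came the unnamed probe A_55_P2051044 (r = 0.89, difference -2.72), a region of chromosome 10 from 69669025 to 69686275 listed as noncoding (0.88, difference -1.99), Pon1 (0.88, difference 0.17) and Rnft2 (0.86, difference -0.24). The lowest were Wdr77 at -0.87, TC1651788 at -0.86 and 9030419F21Rik at -0.85.

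Of the polyamine genes Smox was the most like Amd2 on this measure, at r = 0.78 and rank 30 of 17133. Sms followed at 0.38, Paox at 0.32 and Oaz1 at 0.15, while Odc1 was at -0.08 and Srm at -0.31. The 3 Amd2 probes correlated among themselves at 0.90, 0.75 and 0.56. The value of Smox thus lay within the range of the Amd2 probes themselves, and that of Odc1 lay near 0.

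Genes next to the polyamine enzymes were taken from a list of 38, covering precursors, regulators of ornithine decarboxylase, other acetylation and oxidation, methylthioadenosine salvage, hypusine and transport. Of these, 37 were on the array and 26 passed the filter, and 5 were higher, 5 lower and 16 not past the threshold in transgenic muscle (limma, Benjamini-Hochberg over all genes). That is 38.5% beside 33.0% of all 17257 genes, of which 16.9% were higher and 16.1% lower. The median difference of the 26 genes was 0.06, beside -0.0010 for all genes. With the slide as a fixed block 6 were higher and 7 lower, where 35.8% of all genes passed. Agilent's own log ratio gave 7 higher and 8 lower, where 38.3% of all genes passed. Without wild type 4 it was 5 and 5, where 32.6% of all genes passed.

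Transport held the largest of these differences. Slc3a2, the heavy chain of amino acid exchangers that has also been linked to polyamine export, ranged between -1.44 and -1.19 in wild-type mice and between 0.16 and 0.45 in transgenic ones. It was 3.09-fold higher, a difference of 1.63 ± 0.07 (SE, limma adjusted p = 1.0e-12). Atp13a2, the lysosomal polyamine exporter, rose by 0.40 ± 0.06 (SE, limma adjusted p = 5.2e-05), with -0.47 to -0.20 in wild type against 0.00 to 0.14. In both genes the groups stood apart, and the call of Atp13a2 was lost with median centring, where it read 0.63 (adjusted p = 0.0512).

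Slc47a1, an exporter of organic cations, fell by 0.34 ± 0.10 (SE, limma adjusted p = 0.0121; -0.59 in Agilent's own log ratio), and Gpc1, a proteoglycan linked to polyamine uptake, fell by 0.27 ± 0.08 (SE, limma adjusted p = 0.0102). In both the groups overlapped. With the adipocyte covariate neither passed (adjusted p = 0.958 for Slc47a1 at 0.03 and 0.452 for Gpc1 at -0.22), and with median centring neither passed and Gpc1 read 0.06. In the authors' deposited values Gpc1 read -0.16 and did not pass (adjusted p = 0.161). Atp13a3, of the same family as Atp13a2, read -0.11 ± 0.08 (SE) and did not pass, while in the authors' deposited values it read -0.35 and passed (adjusted p = 0.0209).

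Among precursor genes 1 of 7 rose and 1 fell through their brightest probes. Ass1 read 0.11 ± 0.09 (SE) through its brightest probe and did not pass. Its second probe read 0.38 with the transgenic mice higher and groups apart (limma adjusted p = 0.0027, over all probes). Ass1 passed with the mean over probes (0.24, adjusted p = 0.0202). Ahcy, which clears S-adenosylhomocysteine after methyl transfer, rose by 0.45 ± 0.08 (SE, limma adjusted p = 2.4e-04), from -0.51 to -0.19 in wild type against -0.08 to 0.39, with groups apart. Its other probes read 0.20 (A_55_P2031100) and 0.01 (A_52_P176160), both with overlapping groups, and the mean over probes was 0.22 (adjusted p = 0.0028). Agilent's own log ratio of the brightest Ahcy probe gave 0.71. With the adipocyte covariate it read 0.53 and its adjusted p was 0.0501. Oat, which links ornithine to glutamate and proline, fell by 0.26 ± 0.08 (SE, limma adjusted p = 0.0127) with overlapping groups, and its call was lost in 4 of 26 alternatives (median centring, the authors' deposited values, Cy5 alone and the adipocyte covariate). Mat2a and Mat2b, which encode the subunits that make S-adenosylmethionine outside the liver, read -0.16 ± 0.09 and 0.08 ± 0.07 (SE) through their brightest probes and did not pass. The second Mat2a probe read -0.28 (limma adjusted p = 0.0126, over all probes). Mat2a passed with the mean over probes (-0.22, adjusted p = 0.00855) and in Agilent's own log ratio (-0.32, adjusted p = 0.00259). Arg1, Arg2, Agmat and Mat1a did not pass the filter on dim probes.

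Each aminopropyl transfer leaves methylthioadenosine, which is salvaged to methionine through 5 listed genes. Mri1, the isomerase of that path, rose by 0.37 ± 0.07 (SE, limma adjusted p = 5.1e-04), with -0.48 to -0.22 in wild type against -0.22 to 0.18. Adi1, the dioxygenase near its end, fell by 0.60 ± 0.08 (SE, limma adjusted p = 4.3e-06), with 0.01 to 0.32 against -0.60 to -0.16. The groups did not overlap in either gene, though the nearest mice of Mri1 were less than 0.01 apart. The call of Mri1 was lost with the adipocyte covariate, where it read 0.42 (adjusted p = 0.0785). With median centring the calls of Mri1 (0.61, adjusted p = 0.0817) and Adi1 (-0.36, adjusted p = 0.172) were lost. Mtap, Apip and Enoph1 did not pass, at 0.15, -0.13 and -0.15. With slide as a fixed block Mtap (0.19, adjusted p = 0.0499) and Apip (-0.17, adjusted p = 0.0308) passed. In Agilent's own log ratio Mtap (0.29, adjusted p = 0.0116) and Enoph1 (-0.20, adjusted p = 0.0149) passed, and Mtap passed without UCP1 transgenic 2 (adjusted p = 0.0346).

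Of the 3 genes measured from the list of other acetylation and oxidation 1 rose and 1 fell. Hnmt, on this list though it methylates histamine, fell by 0.61 ± 0.07 (SE, limma adjusted p = 2.5e-06). Its groups stood apart, at 0.23 to 0.49 in wild type against -0.49 to -0.12. Its second probe read -0.50 with overlapping groups, and Agilent's own log ratio of the first gave -1.11. Aoc3, an amine oxidase of fat and vessel cells, rose by 0.26 ± 0.09 (SE, limma adjusted p = 0.0262) with overlapping groups, and its second probe read 0.02. The Aoc3 call was lost in 10 of 26 alternatives, namely median centring, Cy5 alone, the mean over probes, the replicate block, the adipocyte covariate (adjusted p = 0.586) and leaving out wild type 1, 3 or 5 or UCP1 transgenic 4 or 7. Sat2 read 0.05 ± 0.07 (SE) and did not pass.

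The remaining groups had no gene past the threshold on the brightest probe without a block. Azin1, the antizyme inhibitor, read 0.01 ± 0.08 (SE), and its relative Azin2, listed in the files as Adc, read 0.07 ± 0.08 (SE). Spermidine also gives the aminobutyl group of hypusine, a modified lysine of the translation factor eIF5A. Dhps and Dohh, which make it, read 0.06 ± 0.08 and 0.11 ± 0.06 (SE), and the carriers Eif5a and Eif5a2 read 0.07 ± 0.07 and -0.17 ± 0.07 (SE). The adjusted p of Eif5a2 was 0.0661 (limma). Eif5a2 passed with slide as a fixed block (-0.21, adjusted p = 0.0142) or as a random block (adjusted p = 0.0287), in the authors' deposited values (adjusted p = 0.0271), in Agilent's own log ratio (adjusted p = 0.0134) and without wild type 2 (adjusted p = 0.0246) or UCP1 transgenic 2 (adjusted p = 0.0251). Dohh passed in Agilent's own log ratio (0.20, adjusted p = 0.0024).

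**Figure D4:**
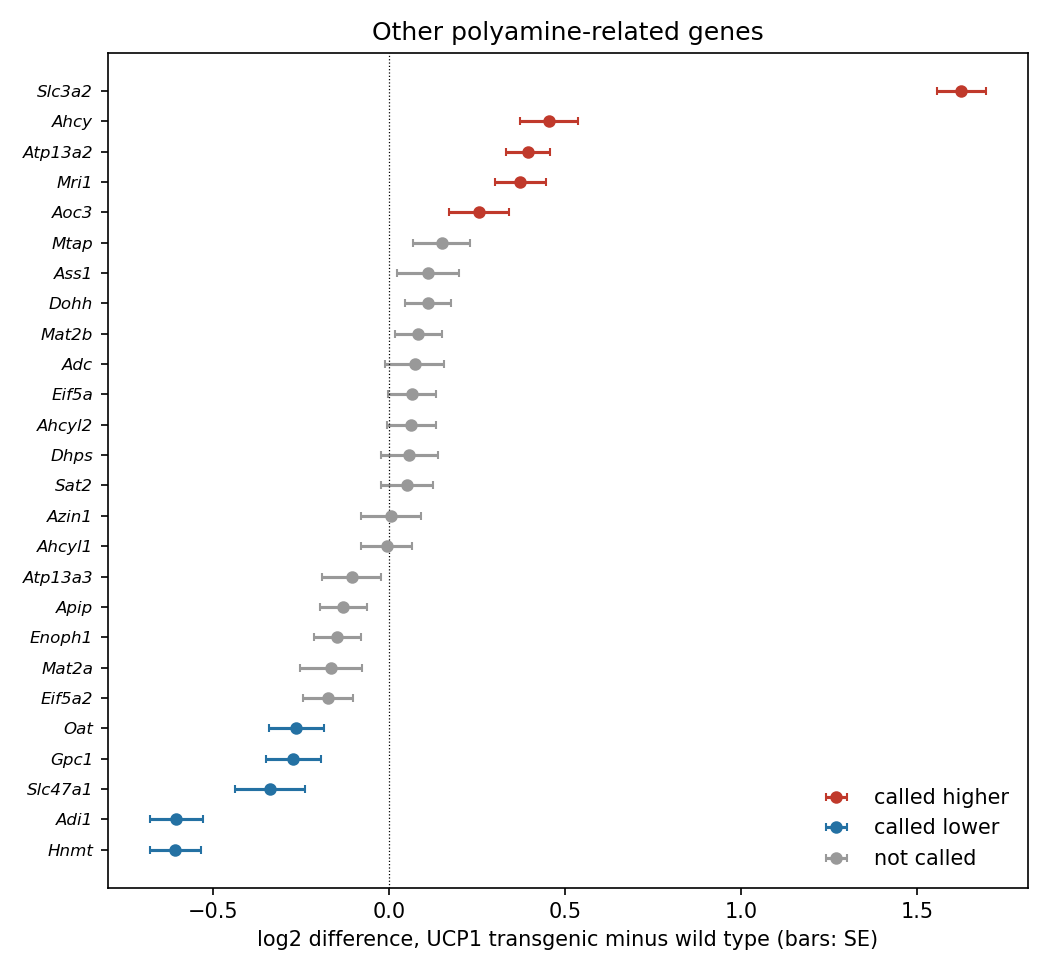
Difference between UCP1 transgenic and wild-type mice on the log2 scale (horizontal axis, bars for the SE) of 26 genes (vertical axis). They are the genes from the list of 38 that passed the filter. Points are red where higher past the threshold, blue where lower and grey where not. Slc3a2 stands at 1.63, while Hnmt and Adi1 stand lowest at -0.61 and -0.60.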

How the data were processed

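The members and gene lists were chosen with earlier results of these data known. Per the file headers, the authors' deposited scanner files hold spot and background intensity on a linear scale and a log10 ratio of processed signals, with other columns for flags (well above background, outlier, control). They were written by Agilent Feature Extraction 10.5.1.1, also named in the submitters' processing notes. The authors' deposited value table holds log2 intensities with a median of 7.58 in each column, its normalization is not given in the sources used here, and it served as an alternative.

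Mean signals were corrected by normexp (offset 50), normalized by loess within arrays and compared with lmFit and eBayes (limma 3.58.1, R 4.3.3) over 6 wild-type and 7 transgenic arrays, two-sided, with Benjamini-Hochberg adjustment over 17257 genes and a threshold of 0.05. The offset draws the differences of dim probes toward 0. A probe was kept if its Cy5 signal was well above background on 6 or more of 13 arrays (22716 of 55681 probes), and the brightest stood for a gene. Dyes were not swapped. The number of arrays limits the precision. A total of 0 per-sample columns was unmapped, and the fit was checked on simulated data. The naming rule covered all members, the 5 genes of the wider list with the largest differences past the threshold in each direction, the 5 most and 3 least like Amd2, and Ucp1. Genes of the wider list that did not pass are named beyond this rule, chosen after their values were seen. Alternatives covered scaling, background, filters, probes, slide, replicate number, adipocyte markers and each array left out. RefSeq names come from GRCm38.p6.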

Additional observations from a re-analysis of the deposited data

Results flagged for a closer look

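A mouse lay far from the rest of its group in 3 of 40 groups (20 genes, 2 genotypes), where chance gives about 1 in 20. For Sms, UCP1 transgenic 2 read -0.36 while the next mouse read -0.59 and the lowest -0.75. For Hnmt, wild type 4 read 0.49, with the next wild-type mouse at 0.32 and the lowest at 0.23. For Ucp1, wild type 4 read 0.45, with the next wild-type mouse at -2.82 and the lowest at -4.23.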

How the results depend on the processing

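The differences of Amd2, Smox, Odc1, Sms and Srm kept their sign in 26 of 26 alternatives, from -4.02 to -3.33, -2.84 to -2.43, -1.95 to -1.51, -1.22 to -0.91 and 0.54 to 0.81. With single arrays left out they ran from -4.02 to -3.83, -2.80 to -2.61, -1.95 to -1.78, -1.21 to -1.14 and 0.60 to 0.67. Median centring without loess, where the median of all genes was 0.14 and 1303 in place of 5695 genes were called, gave 0.030 for Oaz1 and 0.017 for Oaz2-ps, both reversed in sign. Relative to that median they were -0.11 and -0.12. The same setting gave -1.61 for Odc1, -2.43 for Smox, -0.91 for Sms, 0.81 for Srm, 0.36 for Paox and 0.25 for Sat1, and 2 higher and 1 lower gene of the wider list. The mean over probes gave -3.33 for Amd2 and -1.58 for Odc1. With the adipocyte covariate Oaz1 was -0.54, Odc1 -1.51, Smox -2.46 and Paox -0.014, and the wider list had 2 higher and 2 lower genes, with 1775 genes called in all. Agilent's own log ratio gave 0.77 for Srm, 8 lower genes of the wider list and 3 correlations past the threshold, and Cy5 alone gave 1 such correlation. The causes of these shifts were not tested. With single arrays left out, the wider list had 4 to 6 higher and 5 to 6 lower genes, where 29.8% to 33.1% of all genes passed.

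No label states that the replicate numbers pair the mice. Deviations of same-numbered mice correlated at -0.23 to 0.23, which cannot exclude a pairing. With the replicate block Amd2 read -3.89, the wider list had 4 higher and 5 lower genes, and 5369 genes were called in all. The dimmest polyamine probe, A_55_P1982818 of Odc1, had a mean spot signal of 155 units, and its difference was -1.22 with the offset and -1.91 in Agilent's own log ratio.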
